A study of Homo sapiens with 6 samples.

Results

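In the MeTDiff peak list from PANC-1 cells, 1035 of 18431 peaks lay at the 3′ end of a gene. A peak counted as such when the middle base of its transcript blocks fell inside 1 gene span of the RefSeq gene table (GRCh38.p14, small RNA genes aside), under 500 bp from the 3′ end and 500 bp or more from the 5′ end, both by the strand of the peak. These peaks were drawn from 15659 that fell inside 1 span, of which 2594 lay under 500 bp from the 5′ end, 12013 in the interior and 17 under 500 bp from both ends. The rule used position only, so folds, summits and strands relative to the gene were not used to choose the peaks.

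PANC-1 is an established human cell line of pancreatic ductal adenocarcinoma. Cells transfected with siRNA against TRMT5 for 4 days gave 1 input library and 2 m1G precipitates, and cells labelled WT control gave the same numbers, all from polyA+ RNA that was fragmented before precipitation with an anti-m1G antibody. All 6 libraries belonged to the same batch, and whether a pair of precipitates came from separate cultures is not labelled. The deposited lists separate neither the conditions nor the libraries, so no effect of TRMT5 depletion was analysed, depth is unknown, and folds (precipitate over input), false discovery rates (FDR) and summit scores are the authors' values, with no replicate error.

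N1-methylguanosine (m1G) is a methylated base known best from tRNA, where TRMT5 places it next to the anticodon and where it helps the ribosome to keep its reading frame. The 3′ end of an mRNA holds the untranslated region, with sites for microRNAs and RNA-binding proteins, and the signal at which the transcript is cleaved and given its poly(A) tail. A gene span ends where the most distal annotated transcript ends, so the 3′ end of a span need not be the end used in a given cell, and a neighbouring or antisense gene can start close by.

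Of the 852 peaks whose gene has a strand in the RefSeq promoter table, 85 ran on the opposite strand, and 50 of these overlapped a promoter window, the 250 bases before to 50 after an annotated start. Short stretches around the middle or the MACS2 summit of 6 of them are shown because they lie in such windows. Being in a window does not put a peak on the start itself. Each is 30 bases from the RefSeq promoter table (GRCh38.p14), read 5′ to 3′ on the strand of the peak, and the capital marks the summit base in the first 3 and the middle base of the peak in the others. The RALY-AS1 stretch is chr20:33993781-33993810 on the plus strand, in the promoter window of RALY. The EBNA1BP2 stretch is chr1:43172149-43172178 on the plus strand, in that of CFAP57. The VKORC1 stretch is chr16:31094806-31094835 on the plus strand, in that of VKORC1 itself. The SMYD4 stretch is chr17:1829787-1829816 on the plus strand, in that of RPA1. The PSME4 stretch is chr2:53970922-53970951 on the plus strand, in that of ACYP2. The IL4R stretch is chr16:27313967-27313996 on the minus strand, in that of IL4R itself.
RALY-AS1: gagcccggaaccaggGccggagcggcgggc
EBNA1BP2: aagaaacggggtatcCcgagacccaagcgg
VKORC1: ccctcctggccctctGactcggcgattggc
SMYD4: ctgcgccctggtctcCctcccagcgcccgc
PSME4: ccccttccctggccgGcgtgctgctgggcc
IL4R: gtccgggcgcccaaGcgggaagtgggggac
The RALY-AS1 stretch holds 15 G and 10 C among its 30 bases, and the SMYD4 stretch 7 G and 17 C. Sequences under the same-strand peaks were not read, since no genome was used.

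The peaks fell in 957 genes, which is 14.3% of the 6682 genes with a located peak. Protein-coding genes held 1007 of the peaks, long noncoding RNA genes 19, transcribed pseudogenes 6 and other pseudogenes 3. A single 3′ end peak was found in 880 genes, a pair in 76, and 3 in PCDH7, which encodes a protocadherin adhesion protein. Of all 1035, 209 (20.2%) were the only peak of their Ensembl gene ID, and 264 belonged to an ID with 5 or more peaks. Blocks of 20 pairs of these peaks overlapped each other, 19 of them on the same strand and 5 with the same ID, so such pairs share sequence. They made up 6.61% of all located peaks, with the highest share on chromosome 11 (9.43%, 98 of 1039) and the lowest on chromosome 18 (2.82%, 4 of 142).

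Inside the window few middle bases lay close to the end, and peak width limits how close one can lie. The peaks covered 90 to 745 bases and only 13 (1.26%) ran past the end of the span. Few middle bases could therefore fall in the last 50 bp. The median distance of the middle base from the 3′ end was 294 bp, with quartiles of 195.5 and 398 bp and a range of 7 to 499 bp. The last 50 bp held 8 peaks and the next 50 bp 52, against 140 at 150 to 199 bp, the fullest bin. Beyond 250 bp the profile had no further maximum of that size: bins of 50 bp held 110 to 128 peaks up to 500 bp, and 122 peaks lay at 500 to 549 bp. The 5′ ends showed another shape, with 648 peaks at 100 to 149 bp and 111 at 450 to 499 bp.

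**Figure D1:**
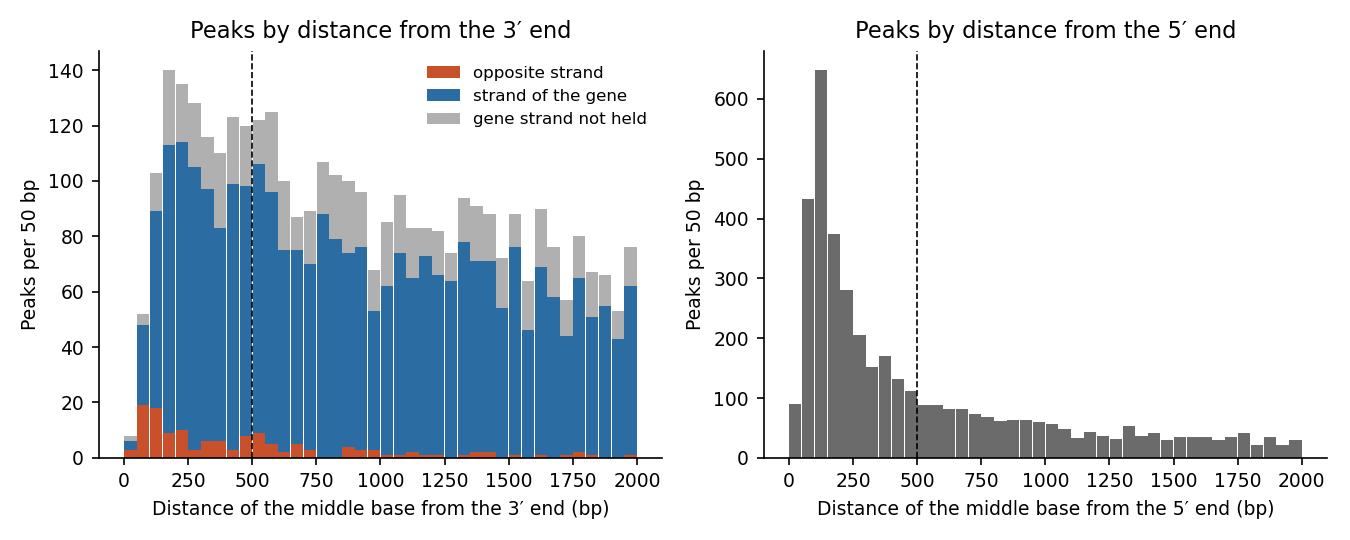
Number of MeTDiff peaks per 50 bp (vertical axes, different scales) by the distance of the middle base from the 3′ end (left, stacked by strand relative to the gene) and from the 5′ end (right) of the gene span, for all located peaks, with the 500 bp limit dashed. The left profile peaks at 140 per bin and declines slowly to 76 in the last bin drawn, while the right one reaches 648 near the start and falls to 111 before the limit, and peaks on the opposite strand gather in the last 150 bp on the left.

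The limits of the rule passed through a continuous run of peaks. Just inside 500 bp were B3GNT7 and CYP51A1, a sterol demethylase gene, each with a middle base at 499 bp and folds of 1.36 and 1.75, and FBXO17 at 499 bp with 2.90. Just outside were PARTICL at 500 bp with a fold of 6.5, TXN2 at 500 bp with 1.64 and WDR18 at 501 bp with 1.47. At the 5′ limit, UCN (648 bp from the 5′ end, fold 13), SDHAF1 (714 bp, 5.25) and GPX1 (833 bp, 1.75) were inside. CCDC85B (481 bp, 9.82), AK2P1 (442 bp, 15) and RPL13AP5 (398 bp, 4.33) were outside.

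Enrichment at 3′ ends was modest. The median fold was 3.83 (95% interval from order statistics 3.63 to 4.03), with quartiles of 2.5 and 6.5 and a range of 1.18 to 38.5. The median was 5.50 (5.45 to 5.75) at 5′ ends, 4.00 (3.91 to 4.00) in the interior and 4.22 over all located peaks. A fold of 10 or more was reached by 107 peaks, or 10.3% (Wilson 95% interval 8.63 to 12.3, counting error only), beside 12.8% of all located peaks, 22.7% at 5′ ends and 10.8% in the interior. Folds under 2 made up 12.9% at 3′ ends (interval 10.9 to 15), 3.70% at 5′ ends and 10.1% in the interior. How many reads lie behind a fold is unknown. Of the 928 folds under 10, 269 (29.0%) were multiples of 0.25 within 0.005, beside 49.5% at 5′ ends, 35.5% in the interior and 37.1% over all located peaks. Among 3′ end peaks such multiples made up 53.4% (39 of 73) on the strand opposite to the gene and 26.9% (187 of 694) on the strand of the gene, and the part of this in the folds was not tested.

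**Figure D2:**
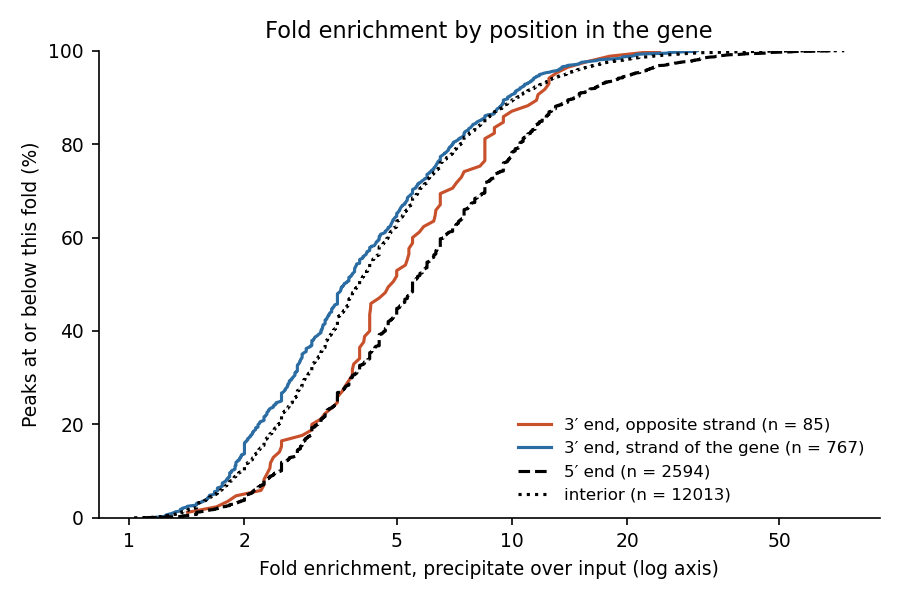
Share of peaks at or below each fold enrichment of precipitate over input (horizontal axis, logarithmic) for 85 peaks at 3′ ends on the opposite strand, 767 at 3′ ends on the strand of the gene, 2594 at 5′ ends and 12013 in the interior. The curve of the same-strand 3′ end peaks (median 3.65) lies close to that of the interior (4.00), and both lie left of the curve of the 5′ ends (5.50).

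KIFC3, which encodes a minus-end-directed kinesin motor, had the largest fold of the 1035, 38.5, in a peak of 2 blocks on chromosome 16 (57758317 to 57759132, FDR 1.05e-05) with its middle 400 bp from the 3′ end. The other 6 peaks of KIFC3 had a median fold of 5.68. TBX2-AS1, a long noncoding RNA antisense to TBX2, followed with 37.0, and then a peak in the span of SLC52A2 with 36.1. The strand of SLC52A2 is not held and another gene lies 79 bp past that end of the span, so to which gene this peak belongs was not settled. HNRNPKP1, a pseudogene of the RNA-binding protein HNRNPK, had 32.5, RAC3, a GTPase gene, 31.5, and TSSK6, a testis-specific serine kinase gene, 30.5. Each of the 5 peaks named after KIFC3 was the only one of its ID.

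B4GALT7, a galactosyltransferase gene of the sugar linker of proteoglycans, had 30.2 (chromosome 5, 177610031 to 177610181, FDR 0.00017) and a second 3′ end peak of 4.21. ACACB, the mitochondrial acetyl-CoA carboxylase gene, and ADCK5 both had 27.5, and PAX2, a paired-box transcription factor gene, had 25.7 against a median of 3.54 over its other 4 peaks. CCM2, a scaffold protein gene of cerebral cavernous malformation, had 25.5, POFUT4, a protein O-fucosyltransferase gene, 24.3 on the strand opposite to the gene, and VWA1, an extracellular matrix gene, 22.5. DHX30, an RNA helicase gene, and ZNF839, a zinc finger gene, both had 21.1. Of these 15 peaks, 6 were the only peak of their ID, 6 held a MACS2 summit, and 6 lay in genes whose strand the promoter table does not hold. Among the 107 peaks of 10-fold or more, 31 (29.0%) were the only peak of their ID, beside 178 (19.2%) of the 928 under 10.

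Within genes, the 3′ end was more often the weaker site. Of 724 IDs with a 3′ end peak and another located peak in the same gene, the fold at the 3′ end was higher in 312, equal in 3 and lower in 409. The median log2 ratio of the 3′ end fold over the median of the other peaks was -0.19 (interval -0.31 to -0.08). It was -0.11 (-0.21 to -0.01) when only interior peaks stood as the others, over 657 IDs. The quartiles, -0.93 and 0.61, show a spread wider than that shift, with 108 genes at least 2-fold higher and 172 at least 2-fold lower at the 3′ end. In 203 IDs the 3′ end fold, taken as a median where an ID had several such peaks, reached the largest fold of the ID in the gene. IDs with unequal 3′ end folds, such as that of B4GALT7 (median 17.2, largest 30.2), could not count here.

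The difference was larger against the 5′ end. In 228 IDs with peaks at both ends, the 3′ end fold was higher in 66, equal in 1 and lower in 161, with a median log2 ratio of -0.73 (interval -0.996 to -0.60) and median folds of 3.80 at the 3′ end and 6.10 at the 5′ end. The 5′ end over the interior gave 0.65 (0.56 to 0.78) over 1179 IDs. Peaks of 1 gene share the transcript, and overlapping ones also share sequence. The gene counts are descriptions of these lists, not of replicate cultures.

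**Figure D3:**
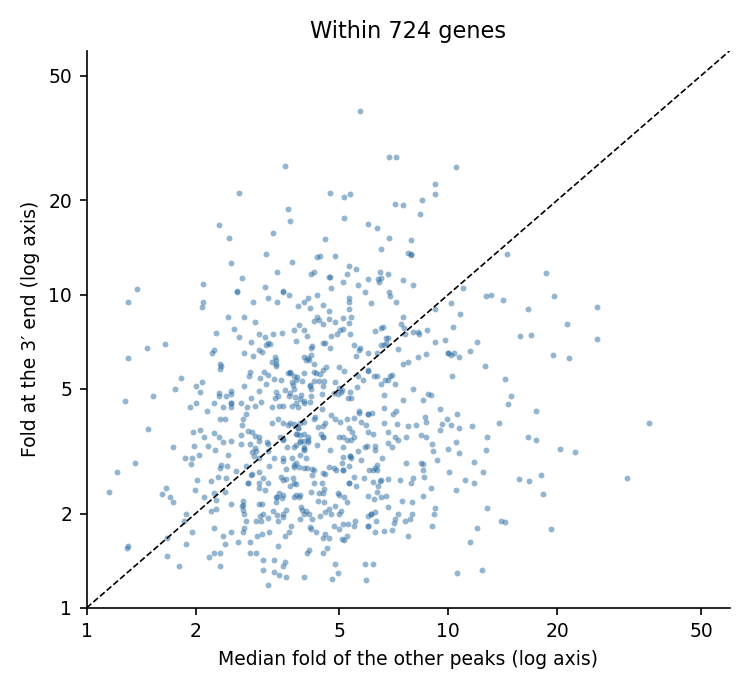
Fold enrichment at the 3′ end against the median fold of the other located peaks of the same gene ID (both axes logarithmic), with 1 point for each of 724 IDs and the line of equality dashed. More points lie below the line (409) than above it (312), and the points scatter widely on both sides.

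Single genes lay on both sides of that line. SNRNP70, the U1 snRNP protein of 5′ splice site recognition, had 16.7 at its 3′ end against a median of 2.33 over its other 2 peaks. FARSA, the alpha subunit of cytosolic phenylalanine-tRNA synthetase, had 18.8 against 3.6 over its other 2. ENO1, the glycolytic enzyme enolase, had 9.08 in a peak whose middle lay 49 bp from the 3′ end, against 4.15 in its other peak in the gene. MSN, which encodes the membrane-actin linker moesin, had 6.88 at the 3′ end and 6.65 elsewhere. COX6B1, a subunit of cytochrome c oxidase, had 5.32 at the 3′ end and 5.82 in its other peak. TXNRD2 had 2.71 at the 3′ end against a median of 10.1 over its other 2 peaks, and GAPDH 1.29 against 10.6 in its other peak. These examples do not mirror the balance over the 724 IDs, of which 409 were lower at the 3′ end and 312 higher.

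Most 3′ end peaks lay in 1 unbroken block. Of the 1035, 111 (10.7%, interval 8.98 to 12.8) were spliced over 2 or more blocks, against 25.2% at 5′ ends and 38.3% in the interior. The median peak covered 149 bases of transcript (90 to 745), beside 150 in both other classes. FLNA, which encodes the actin crosslinker filamin A, had a spliced 3′ end peak of 4.95 over 300 bases, and MVD, a mevalonate pathway enzyme gene, one of 9.50 over 745 bases.

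The second caller, MACS2, placed a summit inside the blocks of 118 peaks (11.4%, interval 9.61 to 13.5), or 25.4% when a summit within 100 bp of the blocks counted, beside 12.5% of all located peaks, 21.1% at 5′ ends and 10.7% in the interior. With a window of 250 bp the share inside the blocks was 6.85%. None of the 1035 held more than 1 summit (interval 0 to 0.37%), beside 50 of all 15659 located peaks (0.319%). The summit score, the −log10 of a p or q that the list does not tell apart, had a median of 20.6 (2.76 to 63.0). Peaks with a summit had a median fold of 6.98 and a median of 298.5 bases, and those without had 3.52 and 101 bases. By fold, summits lay in 8 of 243 peaks (3.29%) under 2.5, in 25 of 404 (6.19%) from 2.5 to 5, in 50 of 281 (17.8%) from 5 to 10 and in 35 of 107 (32.7%) from 10 upward. At the same steps the interior had 1.85, 6.58, 15.2 and 31.9%, and the 5′ ends 5.00, 8.24, 25.7 and 40.2%. Across the 118 peaks, score and fold had a Spearman rho of 0.35, a description over peaks that share the libraries.

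The highest summit scores were in SNRNP70, with 63.0 in a peak of 649 bases on chromosome 19 (49107808 to 49108456, FDR 0.000123), and D2HGDH, the D-2-hydroxyglutarate dehydrogenase gene, with 61.2 (fold 9.88). CDIPT, the phosphatidylinositol synthase gene, followed with 58.1 (fold 13.1), RALY-AS1, a noncoding RNA antisense to the RNA-binding protein gene RALY, with 58.0 (fold 11), and TMED2, a cargo receptor gene of the secretory pathway, with 54.5 (fold 8.50). TMEM160 had 50.2, CENPX, a centromere and DNA repair protein gene, 49.1, and CD151, a tetraspanin gene, 46.3. POFUT4 had 43.2 and SEMA6B, a semaphorin gene, 42.2. The peaks in CDIPT, RALY-AS1, TMED2 and POFUT4 ran on the strand opposite to the named gene. The ID of the RALY-AS1 peak had its other 2 peaks in RALY, which lies on the strand of the peak.

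Summits were rarer close to the end. Peaks with a summit were wider (median 298.5 against 101 bases), and the part of peak width in this was not tested. They lay in 5.00% of the 60 peaks with a middle under 100 bp from the 3′ end and in 4.94% of the 243 at 100 to 199 bp, against 12.5, 14.6 and 15.2% in the next 3 steps of 100 bp. Median folds over these 5 steps were 3.81, 3.50, 4.00, 4.21 and 3.75. Counted from the MACS2 list alone, 164 summits lay at the 3′ end of a gene of known strand, 956 at a 5′ end and 3028 in the interior. Of the 164, 53 were inside one of the 1035 peaks and 55 (33.5%) inside any MeTDiff peak. That share was not counted for the summits at 5′ ends and in the interior, so whether 33.5% is low or high is unknown.

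With the ends taken by the strand of the peak, as in the rule, opposite-strand peaks made up a larger share at 3′ ends than elsewhere. The 85 were 9.98% (interval 8.14 to 12.2) of the 852 with a known gene strand, beside 2.71% over all located peaks, 0.998% at 5′ ends (21 of 2105) and 2.44% in the interior (240 of 9829). Read by the strand of the gene, these 85 lie near its start, because the rule takes the direction from the peak. The 767 same-strand peaks counted with them lie at the other end of their genes. Same-strand peaks near gene starts were the 2084 of the 5′ end class, whose 21 opposite-strand peaks lie near gene 3′ ends. The 9.98% is therefore not a share at 1 end of the gene. The same holds for the shares by distance. These were 40.7% in the last 100 bp, 13.4% at 100 to 199 bp, and 5.94, 6.67 and 5.58% in the 3 steps after that. The median distance of the 85 from the end of the span was 160 bp, against 297 bp for the 767 on the strand of the gene. Their median fold was 4.90 (interval 4.25 to 5.73), against 3.65 (3.50 to 3.89) on the strand of the gene. For 183 peaks the promoter table holds no strand for the gene.

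The gene ID of an opposite-strand peak was often shared with peaks in a neighbouring span. In 18 of the 85 (21.2%) the Ensembl ID of the peak had other peaks inside another gene's span, against 13 of 767 (1.69%) on the strand of the gene. Where the strand of that other gene was known, it was the strand of the peak in 16 of 16. The peak in HECTD3, a ubiquitin ligase gene, had a fold of 8.50 and an ID with 2 peaks in UROD, an enzyme gene of haem synthesis. The peak in COG8, a Golgi complex gene, had 10.0 and an ID with 3 peaks in NIP7, a ribosome biogenesis gene. The peak in MIEN1 had 5.27 and an ID with 6 peaks in ERBB2, the receptor tyrosine kinase gene, and the one in SNAP29, a SNARE protein gene, had 1.42 and an ID with 6 peaks in PI4KA, a phosphatidylinositol kinase gene.

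Their surroundings differed too, though the regions compared lie at different ends of the gene. A next gene began within 500 bp of the end of the span, or overlapped it, for 41 of the 85 (48.2%), against 207 of 767 (27.0%) for peaks on the strand of the gene. Of 38 such next genes with a known strand, 35 were on the strand of the peak, against 30 of 155. The promoter window of another gene was overlapped by 25 of the 85, against 5 of 767. These comparisons set the region before gene starts against the region past gene ends, because the rule takes the direction from the peak. The same counts were not made over all gene starts, so strand and position cannot be told apart. Another count, 38 of the 85 over the window of the named gene against 0 of 767, follows largely from the rule, which puts opposite-strand peaks near that start and same-strand peaks at the far end. The largest folds on the opposite strand after POFUT4 were 18.0 in CCDC43, 15.7 in SMYD4, a SET-domain protein gene, 14 in IL4R, the interleukin-4 receptor gene, and 13.1 in CDIPT. PSME4, a proteasome activator gene, had 9.50, with an ID that also had a peak in ACYP2, and EBNA1BP2, a nucleolar protein gene, had 7. VKORC1, the vitamin K epoxide reductase gene, had 2.29 with a summit score of 24.9, in a peak whose middle lay 36 bp from the end of the span.

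PCDH7 shows both kinds in 1 gene. A minus-strand pair with folds of 9 and 4.28 lay 105 and 479 bp from the start of the plus-strand gene, and both carried the same FDR, 2.51e-14. The third peak, with 2.75 (FDR 0.0282), lay on the strand of the gene, 195 bp from its 3′ end. Of the 77 genes with 2 or more 3′ end peaks, 10 had them on both strands, and the median ratio of the larger to the smaller fold over the 77 was 1.41. For 246 of the 1035 peaks the p-value was identical to that of another peak of the ID, so p-values and FDRs are not separate measurements for each peak.

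The side on which the summit lay also differed by strand, as seen after the values were known. In unspliced peaks of the opposite strand with a summit, the summit lay downstream of the middle by the strand of the peak in 10 of 14, with a median offset of 42.5 bp. On the strand of the gene it lay upstream in 51 of 60, with a median of -84 bp, and where the gene strand was not held it lay upstream in 17 of 20 (-81 bp). In the interior the median was 45.5 bp over 22 opposite-strand peaks, of which 13 had the summit downstream and 9 upstream (quartiles -23.75 and 70 bp), and -71 bp over 643 same-strand peaks, of which 567 had it upstream. The offset was -76 bp over 328 same-strand peaks at 5′ ends. Read by the strand of the gene, the 14 opposite-strand peaks had a median offset of -42.5 bp, on the same side as the others. Median widths were 199.5 bases for the 14 and 300 for the 60. The 14 include an overlapping pair in SLC1A5 that holds the same summit, downstream in both, so they are not all separate summits. From which strand the reads of these peaks came was not tested.

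**Figure D4:**
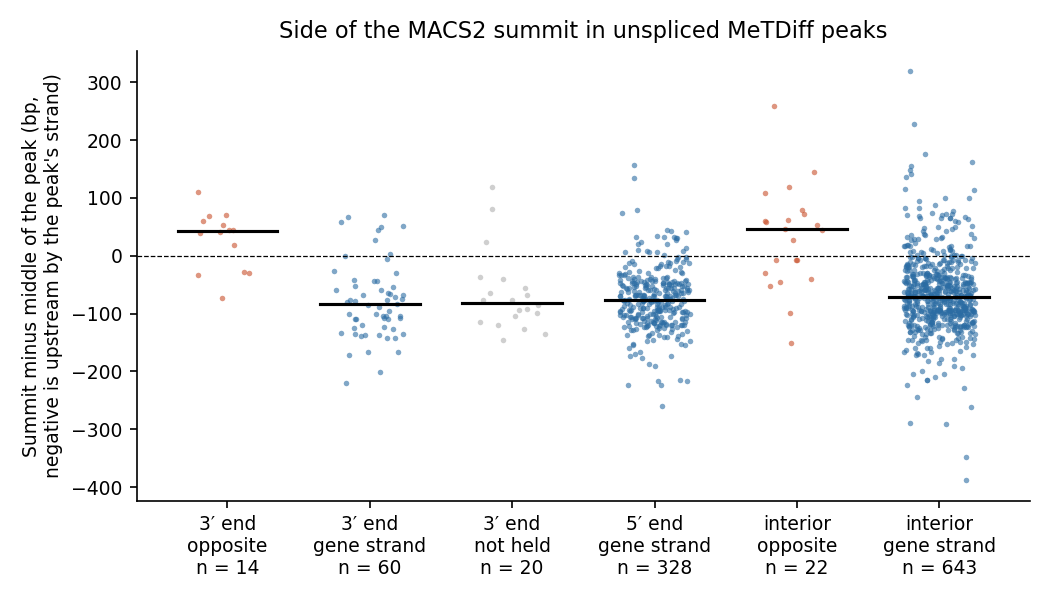
Distance of the MACS2 summit from the middle of unspliced MeTDiff peaks in bp (negative values are upstream by the strand of the peak), with 1 point for each peak and the median as a bar, by position and by strand relative to the gene (not held: gene strand missing from the table). The bars for opposite-strand peaks lie above 0 (42.5 and 45.5 bp), and those of the other classes below it (-84 to -71 bp).

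By function, the interval of 1 of 23 lists, oxidative phosphorylation, lay above the 14.3% over all genes, and those of the other 22 included it. Of 31 genes of oxidative phosphorylation with a located peak, 10 had one at the 3′ end (32.3%, interval 18.6 to 49.9), beside the 14.3% over all genes, and their 11 peaks had a median fold of 2.5 against 3.68 over the 60 peaks of these genes elsewhere. Among the complex I subunits, NDUFS7 had 4.50, NDUFA13 2.57 and 1.91, NDUFB7 2.42, NDUFS8 1.38 and NDUFV1 1.24. SDHC of complex II had 6.33, COX6B1 of complex IV 5.32, and ATP5F1D of the ATP synthase 5.54 with a summit of 22.7. The peak in UQCRQ of complex III, 2.5, ran on the opposite strand and overlapped the promoter window of GDF9. UQCRQ counts among the 10 genes through this peak alone. Gene length was not taken into account in these shares.

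Glycolysis gave 5 of 17 genes (29.4%, interval 13.3 to 53.1) with a median of 3.25 against 5.00 elsewhere. ENO1 had 9.08 and PFKFB4, a regulator of phosphofructokinase, 6.33, while ALDOC, an aldolase gene, had 3.25, TPI1, the triosephosphate isomerase gene, 2.90 and GAPDH 1.29. Selenoprotein mRNAs, which carry in their 3′ untranslated region the element that recodes UGA as selenocysteine, gave 4 of 12 genes (33.3%, 13.8 to 60.9). These were SELENOM with 2.72, TXNRD2, a mitochondrial thioredoxin reductase gene, with 2.71, and the glutathione peroxidase genes GPX4 with 2.5 and GPX1 with 1.75. Whether a peak overlaps that element was not analysed here. Sterol and lipid synthesis gave 5 of 20 genes (25%, 11.2 to 46.9) with a median of 6.47 against 3.40 elsewhere, from MVD with 9.50 and FADS2, a fatty acid desaturase gene, with 6.31 down to CYP51A1 with 1.75 in each of a pair of overlapping peaks.

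**Figure D5:**
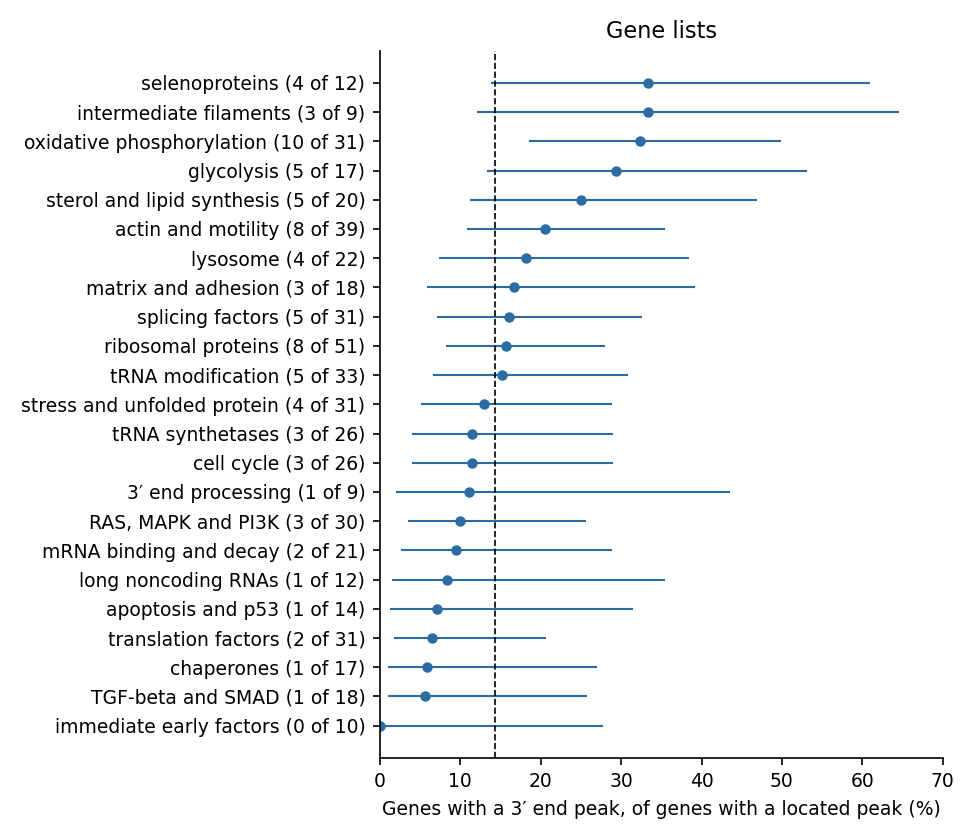
Share of genes with a 3′ end peak among the genes of each list that have a located peak (horizontal axis, %), with Wilson 95% intervals that cover counting error only, for 23 function lists, and 14.3% over all genes dashed. The interval for oxidative phosphorylation (10 of 31) lies above the dashed line, while those of the other 22 lists include it. The intervals are not corrected for the number of lists.

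Genes of the RNA machinery spanned the range. Splicing factors gave 5 of 31 genes (16.1%, 7.09 to 32.6) with a median fold of 7.38 against 3.50 elsewhere, and 4 of their 5 peaks held a summit. Beside SNRNP70 these were PRPF6 (11.6) and PRPF19 (5.38), both of the spliceosome, SF3A2 (4.08) of the U2 snRNP, and PRPF8, the spliceosome core protein gene, with 7.38 on the opposite strand. Ribosomal protein genes gave 8 of 51 (15.7%, 8.17 to 28.0) with a median of 2.83, among them RPS18 with 6.26, FAU with 4.00 and RPS15 with 3.93. Aminoacyl-tRNA synthetase genes gave 3 of 26, with FARSA at 18.8, SARS2, the mitochondrial seryl enzyme gene, at 9.75 and WARS1, the tryptophanyl enzyme gene, at 1.67.

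Genes of tRNA modification gave 5 of 33 (15.2%). TRMU, a mitochondrial tRNA thiolation enzyme gene, had 5.50, CTU2, of cytosolic thiolation, 3.38, THADA 3.25 and DUS2, a dihydrouridine synthase gene, 2.80. The remaining gene, THUMPD3, counts through a peak of 2.38 on the opposite strand, with its middle 99 bp from the start of the gene. TRMT5 itself had no 3′ end peak: its nearest peak lay 4154 bp from the end, with 3.6. NES, the gene of nestin that stands in the title of the study, had its nearest peak 770 bp from the 3′ end, with a fold of 12.9 and a summit of 30.9. The factors of cleavage and polyadenylation gave 1 of 9 genes, SYMPK, the scaffold symplekin, with 3.05. Factors of mRNA binding and decay gave 2 of 21, EDC4 of decapping with 5.62 and 4.00 in overlapping peaks and UPF1 of nonsense-mediated decay with 1.90. Translation factors gave 2 of 31, EIF2B5 with 4.90 and EEF1D with 2.45.

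In the cytoskeleton, actin and motility genes gave 8 of 39 (20.5%, 10.8 to 35.5) with a median of 2.67, from MSN with 6.88 and FLNA with 4.95 over GSN, the severing protein gelsolin, with 4.39 and ARPC1B of the Arp2/3 complex with 3 down to ACTB with 1.38. Intermediate filament genes gave 3 of 9, the lamin genes LMNA with 3 and LMNB2 with 2.48 and the keratin gene KRT8 with 1.89. Lysosomal genes gave 4 of 22, PSAP with 7.05, the channel gene MCOLN1 with 6.25, the protease gene CTSD with 4.70 and LAMP1 with 4.47. Matrix and adhesion genes gave 3 of 18, the membrane metalloprotease gene MMP14 with 7.55, COL6A1 with 2.32 and AGRN with 1.96.

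Signalling, cell cycle and stress lists had shares near or below the 14.3% over all genes, with intervals that include it. RAS, MAPK and PI3K genes gave 3 of 30 (10%, 3.46 to 25.6), RPS6KA1 with 1.89, MAP2K2 with 1.81 and RRAS with 1.72, all weaker than the median of 5.10 over the other peaks of that list. The TGF-beta list gave 1 of 18 (5.56%, 0.988 to 25.8), ID1 with 2.53 and 2.37 in overlapping peaks. Cell cycle genes gave 3 of 26 (11.5%, 4 to 29), E2F1 with 5.44, CDC20 with 4.53 and MCM7 with 2.07. Stress and unfolded protein genes gave 4 of 31 (12.9%, 5.13 to 28.9), among them SDF2L1 with 3.57 and CALR with 3.19, SHMT2 with 3.12 and SLC3A2 with 1.74. Apoptosis gave 1 of 14, BCL2L1 with 4.00, chaperones 1 of 17, CCT3 with 1.70, and the listed long noncoding RNAs 1 of 12, MEG3 with 2.55. Immediate early genes gave 0 of 10.

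Of the marker lists, the ductal one gave 2 of 7 genes with a located peak, KRT8 with 1.89 and MUC1, a mucin gene, with 1.83. The acinar, endocrine, stellate and fibroblast, and immune lists had no 3′ end peak, with 1, 0, 2 and 1 genes carrying any located peak. The endothelial list had EGFL7, with 6.5 and 4.47. Peaks show enrichment over input and not expression, so these counts do not measure cell types.

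Few peaks of the list lay over small RNA genes, at 3′ ends or elsewhere. Of the 1035, 3 overlapped a microRNA hairpin and 0 a tRNA, rRNA, snRNA or snoRNA gene, beside 32 over microRNA hairpins, 14 over snoRNA genes and 0 over the other types among the 14624 other located peaks. In TAOK1 the peak of 4.25 covered 68 bases of the MIR4523 hairpin but ran on the opposite strand to the microRNA. In PDIA5 (3.25) and CHPF2 (1.5) the overlap with MIR7110 and MIR671 was 8 and 9 bases.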

How the data were processed

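RNA of PANC-1 cells was precipitated with an anti-m1G antibody and sequenced beside input (6 libraries). The submitters' processing notes name MACS2 2.2.5, STAR 2.7.1, ChIPseeker, DESeq2, edgeR, featureCounts, bedtools, Picard and SAMtools, and build GRCh38. Roles, settings and the libraries behind each list are not stated there. The authors deposited a MeTDiff list (18431 peaks) with a p-value, the log10 of that p-value, the log10 of the FDR and the fold, a ratio of precipitate over input, per peak. The authors also deposited 6264 MACS2 summits with a −log10 score of a p-value or q-value. These meanings were read from the values and the column order.

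From these lists, peaks were placed on the RefSeq gene table; 113 peaks lay in no span and 2659 in several. A name is that of the span around the middle base. Gene strand came from the RefSeq promoter table (785 of 957 genes). No samples were compared and no test was run. Shares have Wilson 95% intervals and medians order-statistic intervals, both for counting error only. The members and the gene lists (852 genes, 849 in the table) were chosen with earlier results of these data known. Named are TRMT5, NES, the 15 largest folds, the 10 highest summit scores, genes with 3 or more members, up to 4 members of each list and the 3 nearest to each limit; further genes were chosen after their values were seen. Some genes that the rule names are not reported here. Alternatives changed the window, midpoint, spans, FDR limit and summit overlap. Placement was checked on simulated data. Python 3.11.15, pandas 2.3.3, NumPy 2.4.6, SciPy 1.17.1 and Matplotlib 3.10.9 were used.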

Additional observations from a re-analysis of the deposited data

How the results depend on the processing

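Of 53 alternative values, 39 stayed within their interval, or within 1.5 times for counts, 14 moved further and 0 changed sign. The number of 3′ end peaks was 438 with a window of 250 bp and 2031 with 1000 bp. The share with a summit was 6.85% at 250 bp, 14.2% when the last base placed the peak, 25.4% when a summit within 100 bp counted, 13.5% over the whole span and 7.73% with only summits scoring above the median of all summits (16.4). The spliced share was 7.31% at 250 bp, 13.5% at 1000 bp, 7.23% with the middle of the genomic span and 15.7% with the last base. The opposite-strand share, whose alternatives were chosen after seeing the data, was 15.9% at 250 bp, 7.24% at 1000 bp and 14.2% with protein-coding spans alone; it was 8.70% in genes that overlap no other gene (45 of 517). The cause of these shifts was not tested. The median fold stayed between 3.65 and 4.00, and the median log2 ratio within genes between -0.20 and -0.11. The alternative of 1 peak per gene gives no separate ratio within genes. No paired analysis was possible because the lists hold no values per sample. Depth is unknown, so how many reads limit each fold cannot be given.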
